A study of Mus musculus with 6 samples.

Results

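Germline RNA-binding proteins decide which mRNAs of a germ cell are translated, stored or destroyed. The genes described here are Nanos1, Nanos2 and Nanos3, Dnd1, Dazl, Ddx4 and Pum2, taken by gene name from the annotated expression table. All 7 were found among its 34745 genes, and all 7 had enough counts to be tested, as did 13287 genes of the table. Expression was measured by RNA sequencing in cultured mouse spermatogonial stem cells, from which sperm production is maintained. The cultures were of the strain cross DBA/2J X c57BL/6J, derived at postnatal day 6 and used at passages 15 to 20. One group of 3 libraries was untreated, and its titles name no vehicle. The other group of 3 came from the same kind of culture kept for about 4 days with 100 µM bisphenol A (BPA, written "Bisphnel A" in the labels), a building block of plastics with known endocrine activity. The labels do not say whether replicates were separate cultures, so p-values here measure only the spread between these samples, which may be technical.

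NANOS proteins are zinc finger proteins that bring the CCR4-NOT complex, which shortens poly(A) tails, to chosen mRNAs. NANOS3 is known for the survival of primordial germ cells and is made in undifferentiated spermatogonia, NANOS2 maintains spermatogonial stem cells, and mice that lack NANOS1 are known to be fertile. DND1 is an RNA-binding partner of NANOS2, and PUM2 is a Pumilio protein, of the class with which NANOS acts in flies, and binds a short element in 3′ untranslated regions. DAZL binds 3′ untranslated regions together with poly(A)-binding protein and is known to promote translation in germ cells, and DDX4 is the mouse Vasa helicase of germ granules.

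Summed gene counts were 13453280 to 22286517 per library. Of the tested genes 580 were higher and 835 lower under BPA, and with scaling to the summed counts these were 831 and 786, with the median log2 fold change of all genes at 0.21 in place of 0.10. Among the BPA libraries replicate 2 stood apart in its GC trend, the Spearman correlation of a gene's deviation from its overall mean with GC content. It was 0.40 there, -0.40 and -0.47 in BPA replicates 1 and 3, and -0.02 to 0.21 in the untreated libraries. BPA replicates 1 and 3 were further below the untreated range than BPA replicate 2 was above it. In fits without BPA replicate 2, GC trend and treatment therefore cannot be told apart. Values of the members are therefore given for each library, and fits without BPA replicate 2 stand beside the others where they differ.

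The starts of Nanos3, Dazl and Ddx4 are shown because these genes gave the contrasting patterns described below, Nanos3 lower in every BPA library and the others divided among them. Each line gives the 250 bases before the RefSeq start (build GRCm38.p6, 5′ to 3′ on the gene's own strand), and all are on the minus strand. They lie at chr8:84176553-84176802, chr17:50293621-50293870 and chr13:112652311-112652560. Capitals mark matches on either strand to the GC box GGGCGG, the E-box CACGTG, the E2F site TTCCCGC or the CCAAT box CCAAT.
Nanos3: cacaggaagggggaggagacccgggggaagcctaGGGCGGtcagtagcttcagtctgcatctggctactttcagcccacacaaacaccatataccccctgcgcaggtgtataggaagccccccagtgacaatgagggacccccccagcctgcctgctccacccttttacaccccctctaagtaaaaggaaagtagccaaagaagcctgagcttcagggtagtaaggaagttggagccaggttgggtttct
Dazl: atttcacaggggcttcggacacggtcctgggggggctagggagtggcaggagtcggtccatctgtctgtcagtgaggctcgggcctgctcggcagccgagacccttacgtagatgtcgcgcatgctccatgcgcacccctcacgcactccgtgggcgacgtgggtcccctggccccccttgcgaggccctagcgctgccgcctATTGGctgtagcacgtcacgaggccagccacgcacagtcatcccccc
Ddx4: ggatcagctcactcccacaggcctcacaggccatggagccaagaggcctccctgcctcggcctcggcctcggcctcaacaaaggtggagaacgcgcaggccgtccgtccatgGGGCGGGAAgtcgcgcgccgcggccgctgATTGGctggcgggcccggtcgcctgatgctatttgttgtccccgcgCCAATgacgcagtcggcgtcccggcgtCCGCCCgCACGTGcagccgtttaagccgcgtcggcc
In the full RefSeq window, which adds the first 50 bases of the transcript, Nanos3 held 3 CpG dinucleotides against 28 for Dazl and 38 for Ddx4, and the median of 32851 promoters was 7. Tested genes whose names matched a RefSeq promoter were also classed by this count, with classes cut at the members' own values. Where a gene had several promoters, the largest count was used. Of 292 genes with 3 or fewer, 1.71% were higher and 7.88% lower under BPA. For 6405 genes with 4 to 27 the shares were 4.07% and 7.29%, and for 3236 with 28 or more 6.18% and 4.76%. Median transcript GC content was 51.2%, 50.9% and 49.8% in these classes, and the shares were not corrected for it. Whether CpG content bears on the members' differences was not tested. Nanos3 held 1 GC box and no CCAAT box. Dazl held 1 CCAAT box. Ddx4 held 2 GC boxes, 1 of which overlaps its 1 E2F site, 1 E-box and 2 CCAAT boxes. Of all promoters of this length, 35.7% held a GC box, 7.2% the E-box, 4.6% the E2F site and 37.4% a CCAAT box. The composite site TGATGCAA, searched for the stress factor ATF4, stood in 0.9% of all promoters and in none of those of the 6 members examined. The promoter of Dnd1 was not examined. That composite was also absent from the window of Nanos2, which held 0 CpG dinucleotides and 2 CCAAT boxes. The RefSeq start of Nanos2 lies 124 bases inside the deposited gene, so its window is partly transcribed and is not printed. Promoter windows of Nanos1 and Pum2 were CpG-rich, with 34 and with 35 to 44 CpG dinucleotides.

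PUM2's element was searched as TGTANATA in the longest 3′ untranslated region of each member in GENCODE M21 (mm10), because PUM2 is a member and the others could carry its site. It was found in Nanos1 at position 652 to 659 of that region and in Pum2 itself at positions 445 to 452 and 698 to 705. The matches stand in capitals within 24 bases of sequence, on the plus strand of chromosome 19 for Nanos1 and of chromosome 12 for Pum2.
Nanos1: tcatatcgTGTACATAtttggaaa
Pum2, first site: tatagagaTGTATATAgaattata
Pum2, second site: tacagaatTGTATATActtataat
No match stood in the regions of Nanos2, Nanos3, Dnd1, Dazl or Ddx4. At least 1 match was present in 25.4% of the 12634 tested genes with such a region.

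Nanos3 was the member with the largest difference between the groups. All values below are CPM, gene counts scaled to a common library size with the trimmed mean of M-values, and means carry the SD over 3 libraries. Untreated replicates 1 to 3 had 272, 247 and 237 CPM of Nanos3, and BPA replicates 1 to 3 had 31.9, 48.9 and 39.7 CPM. The groups were far apart, and the highest BPA library was well below the lowest untreated one. Nanos3 fell from 252 ± 17.9 to 40.2 ± 8.52 CPM and was 6.27-fold lower, with a log2 fold change of -2.65 (SE 0.19, edgeR adjusted p = 8.5e-06). Over all tested genes 10.6% passed the same threshold of 0.05, 4.37% higher and 6.28% lower, and the groups did not overlap for 31.3% of them. Leaving out each library in turn left the log2 fold change of Nanos3 between -2.81 and -2.50, with an edgeR adjusted p of 0.00041 at most. The gene lies on chromosome 8 (84173733 to 84176552, minus strand, mm10, ENSMUSG00000056155).

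Nanos2, the stem cell member of the family, had few counts and spread widely. It had 12.2, 8.32 and 19.4 CPM in untreated replicates 1 to 3 and 8.45, 1.29 and 3.26 CPM in BPA replicates 1 to 3. BPA replicate 1 lay just above the lowest untreated library, so the groups overlapped, while BPA replicates 2 and 3 lay below all untreated ones. The means were 13.3 ± 5.65 and 4.33 ± 3.70 CPM, and the difference did not pass the threshold (log2 fold change -1.63, SE 0.62, edgeR adjusted p = 0.12). The lowest library rested on 26 counts and the highest on 268. Without BPA replicate 1 the log2 fold change was -2.53, past the threshold (edgeR adjusted p = 0.045). It did not pass without BPA replicate 2, at -1.19 (edgeR adjusted p = 0.14), without untreated replicate 3, at -1.18 (edgeR adjusted p = 0.37), or without any other library. With limma-voom it was -2.06 (adjusted p = 0.047). With no filter on low counts the edgeR adjusted p was 0.030, and the DESeq2 adjusted p was 0.053. Exons of Nanos2 (chromosome 7, 18987400 to 18988962, plus strand, ENSMUSG00000051965) overlap an antisense gene, Gm45058, over 766 bases or 49.0% of their length. That gene is listed with 0 counts in all 6 libraries, and the libraries do not mark strand, so reads of the overlap cannot be told apart.

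Nanos1 had 22.1, 13.5 and 13.6 CPM in the untreated libraries and 25.3, 10.6 and 18.5 CPM in the BPA libraries. Its groups overlapped throughout, with the highest and the lowest library both under BPA. The means were 16.4 ± 4.93 and 18.1 ± 7.37 CPM, with a log2 fold change of 0.14 (SE 0.38, edgeR adjusted p = 0.86). Its sign depended on 1 library, going from -0.17 without BPA replicate 1 to 0.42 without untreated replicate 1. Thus of the NANOS family 1 of 3 genes passed the threshold, and whether the members' differences from each other exceed error was not tested. Nanos1 lies on chromosome 19 (60755987 to 60759913, plus strand, ENSMUSG00000072437).

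Dnd1, which encodes the RNA-binding partner of NANOS2, had 384, 394 and 356 CPM in untreated replicates 1 to 3. Its BPA replicates 1 to 3 had 244, 295 and 225 CPM. Each BPA library was below each untreated one, by far less than for Nanos3. Dnd1 fell from 378 ± 19.4 to 255 ± 36.5 CPM, with a log2 fold change of -0.57 (SE 0.15, edgeR adjusted p = 0.031). This call was lost when any library other than BPA replicate 2 was left out, with edgeR adjusted p between 0.056 (without untreated replicate 3) and 0.14 (without untreated replicate 1 or 2), and 0.12 to 0.13 without BPA replicate 3 or 1. The log2 fold change lay between -0.57 and -0.48 in those fits and was -0.69 without BPA replicate 2. Dnd1 (chromosome 18, minus strand, ENSMUSG00000044595) shares 140 bases of exon, 5.8% of its length, with Wdr55 on the other strand.

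**Figure D1:**
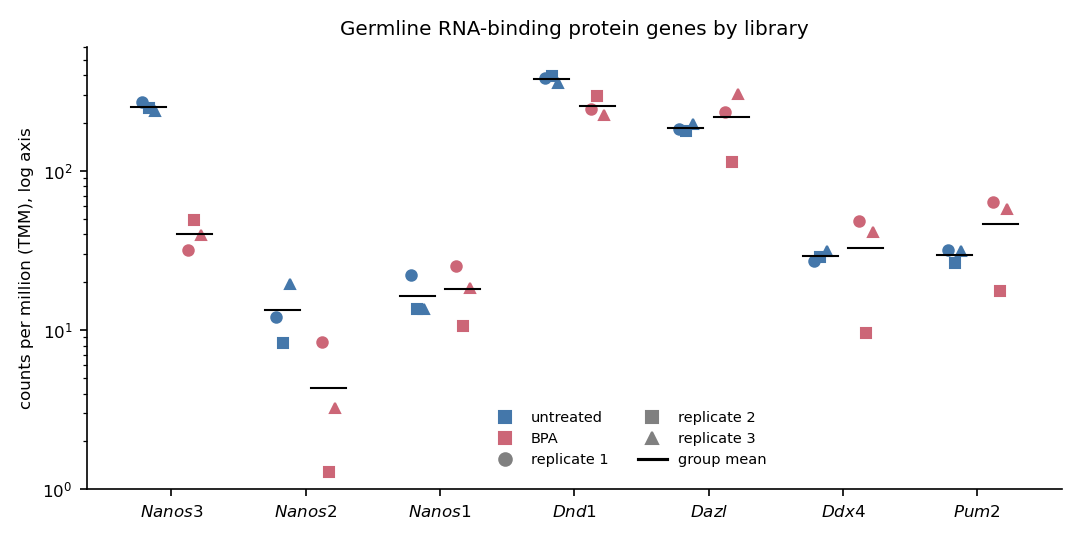
Normalised counts (CPM) of the 7 members (log axis) in each of 3 untreated and 3 BPA libraries, with symbols for the replicate number and bars for the group mean. The groups are separate for Nanos3 and Dnd1, and BPA replicate 2 (square) is the lowest BPA library for Nanos2, Nanos1, Dazl, Ddx4 and Pum2.

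Pum2, Dazl and Ddx4 shared another pattern, in which the BPA libraries lay on both sides of the untreated ones. Pum2 had 31.7, 26.4 and 31.4 CPM untreated and 63.8, 17.5 and 57.7 CPM in BPA replicates 1 to 3. BPA replicates 1 and 3 were above every untreated library and BPA replicate 2 was below every one. The means were 29.8 ± 2.99 and 46.3 ± 25.1 CPM, with a log2 fold change of 0.64 (SE 0.38, edgeR adjusted p = 0.33). Without BPA replicate 2 the log2 fold change was 1.03, past the threshold (SE 0.20, edgeR adjusted p = 0.0037). Pum2 lies on chromosome 12 (8674134 to 8752581, plus strand, ENSMUSG00000020594).

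Dazl, the translational activator of the set, had 182, 178 and 196 CPM in the untreated libraries and 235, 114 and 305 CPM in BPA replicates 1 to 3. Again BPA replicates 1 and 3 stood above and BPA replicate 2 below all untreated libraries. The means were 185 ± 9.28 and 218 ± 96.7 CPM, and the log2 fold change was 0.23 (SE 0.27, edgeR adjusted p = 0.65). It was 0.54 and past the threshold without BPA replicate 2 (SE 0.13, edgeR adjusted p = 0.010), and -0.087 without BPA replicate 3. The locus is on chromosome 17 (50279394 to 50293599, minus strand, ENSMUSG00000010592).

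Ddx4, the germ granule helicase, had 27.2, 28.8 and 31.2 CPM untreated and 48.2, 9.61 and 41.2 CPM in BPA replicates 1 to 3. As for Pum2, BPA replicates 1 and 3 were above and BPA replicate 2 below every untreated library. Its means were 29.1 ± 2.00 and 33.0 ± 20.6 CPM, with a log2 fold change of 0.18 (SE 0.44, edgeR adjusted p = 0.84). Without BPA replicate 2 the log2 fold change was 0.62 and did not pass (edgeR adjusted p = 0.062), and without BPA replicate 1 it was -0.19. Ddx4 lies on chromosome 13 (112598333 to 112652310, minus strand, ENSMUSG00000021758).

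The members thus differed in how tightly the replicates agreed. In untreated libraries the coefficient of variation was 5.01% for Dazl, 5.12% for Dnd1, 6.88% for Ddx4, 7.12% for Nanos3 and 10.03% for Pum2, against 30.1% for Nanos1 and 42.5% for Nanos2. Under BPA it was 14.3% for Dnd1 and 21.2% for Nanos3, and 40.7% to 85.3% for the other 5 members. BPA replicate 2 departed from the other BPA libraries in both directions. Its Nanos3 and Dnd1 were 1.37 and 1.26 times the mean of BPA replicates 1 and 3, while the ratio was 0.482 for Nanos1, 0.422 for Dazl, 0.289 for Pum2, 0.220 for Nanos2 and 0.215 for Ddx4.

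These ratios followed the GC content of the transcripts only in part. Nanos3 and Dnd1 had the highest GC content and the highest ratios. Among the other members the ratio did not follow GC content, as Dazl had the lowest GC content and a higher ratio than Nanos2. GC content was 56.3% for Nanos3, 53.3% for Dnd1, 52.7% for Nanos2, 49.6% for Nanos1, 43.1% for Ddx4, 42.2% for Pum2 and 37.0% for Dazl. Across the 7 members the Spearman correlation of the ratio with GC content was 0.57, given as a description of values that share 3 libraries. The same ratio over all tested genes had a median of 0.380 below 40% GC, 0.512 from 40% to 44%, 0.762 from 44% to 48%, 1.04 from 48% to 52%, 1.26 from 52% to 56% and 1.42 above 56%. Nanos3, Dnd1 and Dazl were near the median of their own GC range, and Ddx4, Pum2, Nanos1 and above all Nanos2 were below it. After each library was corrected for its trend on GC content and gene length, a correction chosen after the data were seen, the log2 fold change was -2.12 for Nanos3 (edgeR adjusted p = 1.3e-06) and -0.39 for Dnd1 (edgeR adjusted p = 0.015). With it Nanos2 was at -1.28 (edgeR adjusted p = 0.20), Ddx4 at -0.23, Dazl at 0.00 and Pum2 at 0.06. The part of library composition in the members' values was not tested beyond these fits.

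**Figure D2:**
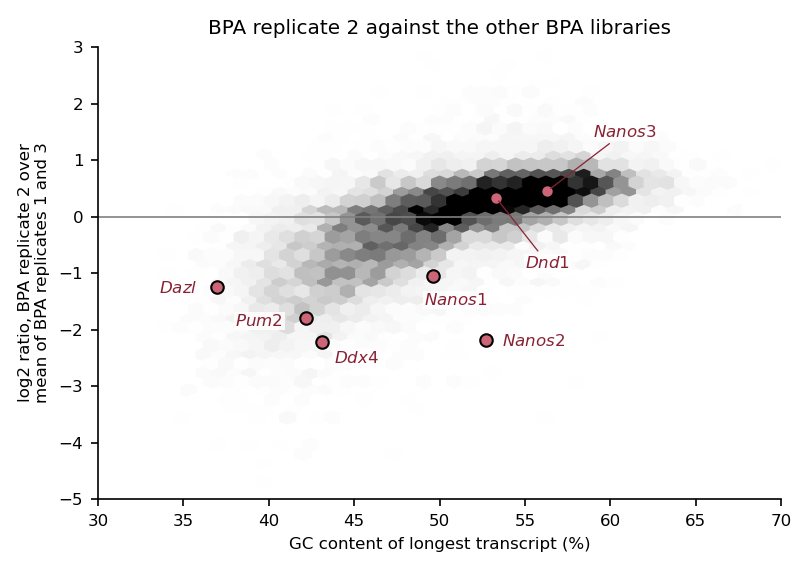
Log2 ratio of BPA replicate 2 to the mean of BPA replicates 1 and 3 against the GC content of the longest transcript, for all tested genes (grey hexagons, darker for more genes) and the 7 members (red). Nanos3 and Dnd1 lie above 0 and the other 5 below, with Nanos2 and Ddx4 lowest.

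**Figure D3:**
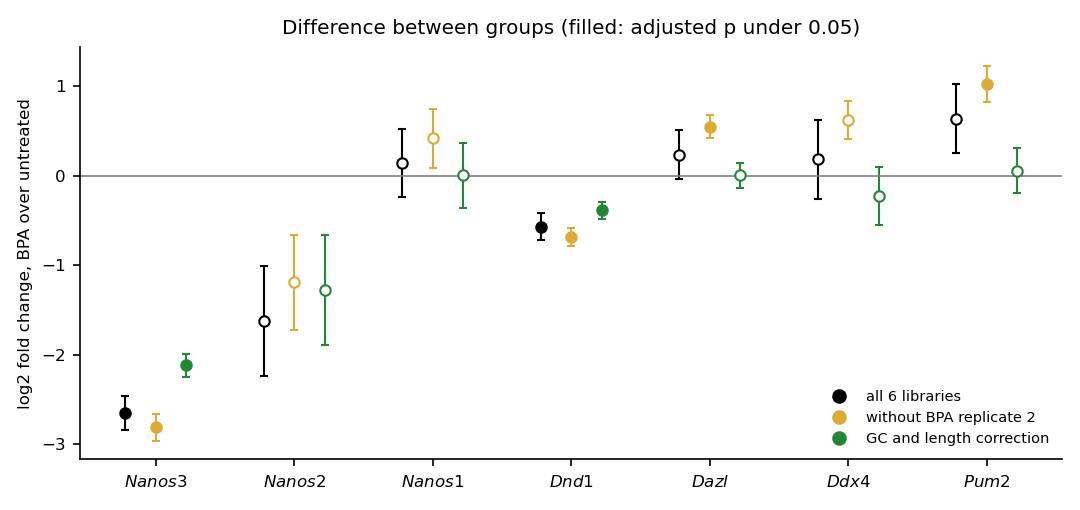
Log2 fold change of each member, BPA over untreated, with its standard error, from all 6 libraries, without BPA replicate 2, or corrected for GC content and length. Filled points passed an adjusted p of 0.05, which Nanos3 and Dnd1 did in all 3 fits and Dazl and Pum2 only in the fit without BPA replicate 2.

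Counted together, 2 of 7 members passed the threshold lower and 0 higher in edgeR, beside 6.28% and 4.37% of all tested genes. The share called lower differed with GC content. It was 1.65% below 40% GC, 1.40% from 40% to 44%, 3.07% from 44% to 48% and 5.81% from 48% to 52%. From 52% to 56%, the range of Dnd1 and Nanos2, it was 9.28%, and above 56%, the range of Nanos3, 10.7%. At an unadjusted p under 0.05 the counts were 3 lower and 0 higher, DESeq2 called 2 lower and 0 higher, and limma-voom 3 lower and 0 higher. The count was 2 lower and 2 higher without BPA replicate 2, since Dazl and Pum2 then passed. In that fit GC trend and treatment cannot be told apart. Without each other library in turn 1 or 2 were lower and 0 higher, and at a threshold of 0.01 only Nanos3 passed. Groups did not overlap for 2 of 7 members, Nanos3 and Dnd1, a share near the 31.3% of all tested genes. In bulk RNA, fewer cells that express a gene and less RNA of it per cell cannot be told apart.

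Levels of different genes were compared as CPM per kilobase of merged exons. In untreated cultures Nanos3 was the most abundant member at 273 ± 19.4 CPM per kb, followed by Dnd1 at 157 ± 8.02 and Dazl at 48.5 ± 2.43. Ddx4 (9.65 ± 0.664) and Nanos2 (8.52 ± 3.62) did not differ beyond their spread, and neither did Nanos1 (4.17 ± 1.26) and Pum2 (4.11 ± 0.412), all in CPM per kb. Under BPA the order changed at the top, with Dnd1 at 106 ± 15.1, Dazl at 57.0 ± 25.3 and Nanos3 at 43.5 ± 9.23 CPM per kb, the last pair within their spread. Nanos2 was last at 2.77 ± 2.36 CPM per kb, within the spread of Nanos1 at 4.61 ± 1.88. The deposited FPKM values gave another top order under BPA, because they rest on other gene lengths. The length behind the deposited Dnd1 values is 5138 bases, longer than its locus of 2544 bases and than its merged exons of 2412 bases, and for Pum2 it is 18592 bases against 7260.

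Genes most like Nanos3 over the 6 libraries, by Pearson correlation of log2 CPM among 7710 genes with at least 10 CPM on average, included Id3 (r = 0.9994), Cdk5rap3 (0.9993), Snrnp25 (0.9987) and Arl6ip4 (0.9981). Id3 encodes an inhibitor of helix-loop-helix transcription factors. Id3 had 101, 89.2 and 84.4 CPM untreated and 18.4, 26 and 22.8 CPM in BPA replicates 1 to 3, so that, as for Nanos3, BPA replicate 2 was the highest BPA library. Genes most like Dazl were D15Ertd621e (r = 0.9954), Zfyve9 (0.9885), Ckap2 (0.9858), Abce1 (0.9846) and Atad1 (0.9822). Abce1, a ribosome recycling factor, had 12.1, 14.4 and 14.7 CPM untreated and 20.6, 7.48 and 30.8 CPM under BPA. The transcripts named as like Nanos3 had 55.2% to 59.2% GC and those like Dazl 39.1% to 46.3%. These are descriptions over 6 points that share their libraries.

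Genes for the proteins with which NANOS and PUM2 shorten poly(A) tails were called about as often as all tested genes, of which 10.6% passed. Of 17 Pumilio and CCR4-NOT deadenylation genes 2 were higher and 0 lower in edgeR, beside 4.37% and 6.28% of all tested genes. These shares also stand beside the lists that follow. The counts were 4 and 0 at an unadjusted p under 0.05, 4 and 0 in DESeq2, and 1 and 0 in limma-voom. The list had a median log2 fold change of 0.19 against 0.10 over all tested genes. That median was -0.02 after the GC and length correction (0.02 over all genes), 0.37 without BPA replicate 2, 0.43 without untreated replicate 3 and 0.29 with library size scaling (0.21 over all genes). One of the higher genes was Cnot1, the scaffold of the CCR4-NOT complex, which went from 51.5, 49.0 and 61.7 CPM untreated to 114, 65.1 and 143 CPM under BPA. Its log2 fold change was 0.99 (SE 0.26, edgeR adjusted p = 0.031). Its call was lost without any single library except BPA replicate 2 (edgeR adjusted p between 0.075 and 0.15), and after the GC and length correction (log2 fold change 0.39, edgeR adjusted p = 0.14).

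Of 12 P-body and decapping genes 1 was higher and 0 lower in edgeR (7 and 0 at an unadjusted p under 0.05, 2 and 0 in DESeq2, 0 and 0 in limma-voom), and the median log2 fold change was 0.44 (0.28 after the GC and length correction). Xrn1, the 5′ to 3′ exonuclease that degrades decapped mRNA, had 6.36, 2.59 and 5.37 CPM untreated and 23.7, 7.33 and 17.9 CPM under BPA. The log2 fold change was 1.77 (SE 0.50, edgeR adjusted p = 0.043). That call was lost without any single library except BPA replicate 2 (edgeR adjusted p between 0.10 and 0.21). Without BPA replicate 2, 4 genes of the list were higher: Xrn1, Ddx6, Lsm14a and Eif4enif1. After the GC and length correction 1 was higher (Edc4) and 1 lower (Lsm1). The other 5 genes named here were chosen after their values were seen.

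Among 6 poly(A)-binding and DAZ-associated genes 1 was higher and 2 were lower, and the median log2 fold change was 0.21. It was -0.08 after the GC and length correction, 0.03 without BPA replicate 3, 0.14 without BPA replicate 1 and 0.32 with library size scaling. Pabpc4, a cytoplasmic poly(A)-binding protein, had 94.5, 77.1 and 79.1 CPM untreated and 145, 195 and 183 CPM under BPA. It rose by 1.06 on the log2 scale (SE 0.18, edgeR adjusted p = 0.0030) and passed without each library in turn. Dazap1 and Dazap2 encode proteins first found as partners of DAZ proteins. Dazap1 had 234, 236 and 178 CPM untreated and 110, 164 and 122 CPM under BPA, a log2 fold change of -0.71 (SE 0.19, edgeR adjusted p = 0.033). Dazap2 had 116, 133 and 118 CPM untreated and 91.3, 77.9 and 69.2 CPM under BPA, a log2 fold change of -0.62 (SE 0.18, edgeR adjusted p = 0.043). Both sets of BPA libraries lay below the untreated ones. Dazap1 passed only without untreated replicate 3 or BPA replicate 2, with an edgeR adjusted p of up to 0.16 without another library, and Dazap2 only without BPA replicate 2 (up to 0.18 otherwise).

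The other 22 germline and translational RNA-binding protein genes tested gave 0 calls in edgeR, DESeq2 and limma-voom alike, with 5 higher and 0 lower at an unadjusted edgeR p under 0.05. Their median log2 fold change was 0.46, against 0.70 without BPA replicate 2 and 0.10 with the GC and length correction. The most abundant were Igf2bp1, an mRNA-stabilising protein, and Elavl1, which encodes HuR. Igf2bp1 had 381, 367 and 347 CPM untreated and 257, 353 and 277 CPM under BPA, a log2 fold change of -0.31 (SE 0.15, edgeR adjusted p = 0.24). BPA replicate 2 overlapped the untreated libraries and the other BPA libraries did not. Without BPA replicate 2, Igf2bp1 was lower (edgeR adjusted p = 0.0085) and 4 genes were higher: Rbm46, Tial1, Celf1 and Ddx25, which were named after their values were seen. After the GC and length correction Igf2bp1 alone passed, at -0.56 (edgeR adjusted p = 0.0060). Elavl1 had 115, 132 and 131 CPM untreated and 143, 164 and 182 CPM under BPA, without overlap. Its log2 fold change was 0.37 (SE 0.16, edgeR adjusted p = 0.17) and -0.094 after that correction.

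**Figure D4:**
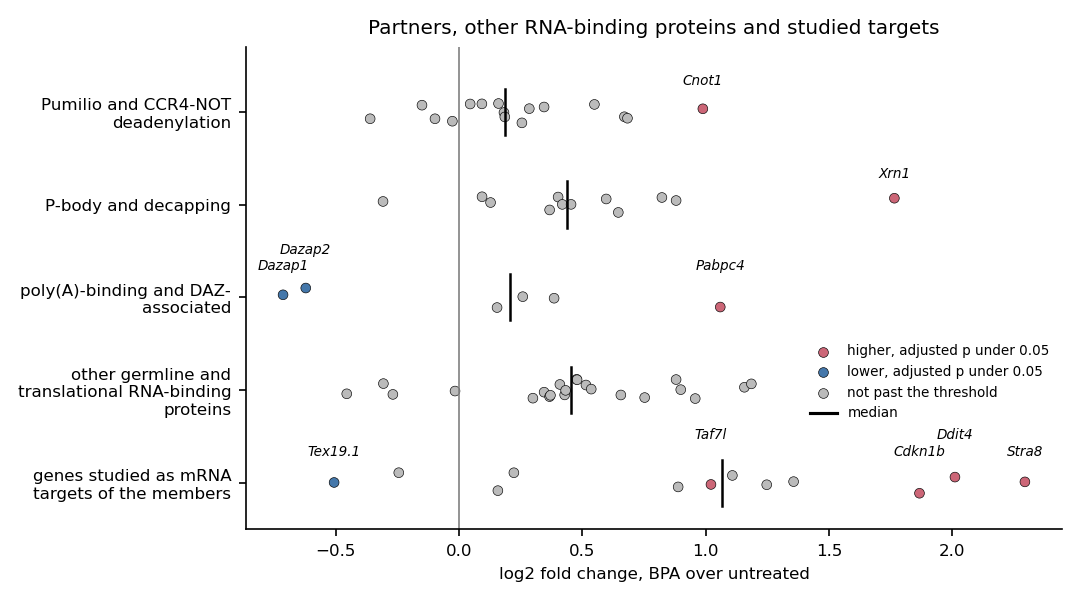
Log2 fold change, BPA over untreated, of the tested genes in 5 lists around the members (1 point per gene, with 1 called gene of the first list not shown, spread vertically only for legibility), with a bar for the median of the whole list. Named points passed an adjusted p of 0.05: 7 lie above 0 and 3 below.

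Genes that have been studied as mRNA targets of NANOS, DND1, DAZL or Pumilio proteins included several that rose. Of 12 tested, 4 were higher and 1 was lower, with a median log2 fold change of 1.07, but the list was drawn up with results for some of these genes known and is not independent evidence of its direction. Stra8, a retinoic acid target needed to enter meiosis, had 14.6, 15.1 and 12.4 CPM untreated and 80.5, 50.4 and 75.9 CPM in BPA replicates 1 to 3. All BPA libraries were several times above the untreated ones, and Stra8 rose by 2.29 on the log2 scale (SE 0.26, edgeR adjusted p = 0.00023). Ddit4, which encodes the mTORC1 inhibitor REDD1 and is induced by stress, had 110, 91.3 and 131 CPM untreated and 350, 524 and 466 CPM under BPA. Its rise was 2.01 on the log2 scale (SE 0.19, edgeR adjusted p = 7.6e-05).

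Cdkn1b, the cyclin-dependent kinase inhibitor p27 whose mRNA Pumilio proteins are known to bind, had 9.64, 8.95 and 8.20 CPM untreated. Its BPA replicates 1 to 3 had 33.8, 25.6 and 38.5 CPM, all above the untreated libraries, a rise of 1.87 on the log2 scale (SE 0.29, edgeR adjusted p = 0.0021). Stra8, Ddit4 and Cdkn1b passed without each library in turn and after the GC and length correction. Taf7l, a germ cell paralog of a general transcription factor subunit, had 78.2, 109 and 121 CPM untreated and 240, 132 and 255 CPM under BPA, a log2 fold change of 1.02 (SE 0.25, edgeR adjusted p = 0.022). It lost its call without any single library except BPA replicate 2 (edgeR adjusted p between 0.053 and 0.13). Tex19.1, a germ cell gene named here after its values were seen, fell by 0.51 on the log2 scale (SE 0.13, edgeR adjusted p = 0.028), a call kept only when untreated replicate 3 or BPA replicate 2 was the library left out (edgeR adjusted p of 0.15 at most otherwise). The synaptonemal complex gene Sycp1, also chosen after its values were seen, repeated the pattern of Ddx4, with 42.4, 36.9 and 26.6 CPM untreated and 108, 13 and 75.7 CPM in BPA replicates 1 to 3 (edgeR adjusted p = 0.32).

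Tested genes that carry the PUM2 element in the 3′ untranslated region numbered 3210, of which 5.61% were higher and 2.77% lower under BPA, and their median log2 fold change was 0.31. The 9424 without it had 4.20% higher and 7.68% lower, with a median of 0.02. The groups also differed in median GC content (47.1% and 51.7%) and in median length of that region (2163.5 and 881.5 bases). After the GC and length correction the shares were 6.42% higher and 6.04% lower with the element, and 6.91% and 10.4% without it, with medians of 0.07 and 0.00. These shares are descriptions over genes, which are not replicates.

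The labelled cell type was checked on markers, of which those called are named. The 12 genes of undifferentiated spermatogonia summed to 1939 to 2043 CPM untreated and to 1433, 2153 and 1572 CPM in BPA replicates 1 to 3. BPA replicates 1 and 3 were thus below every untreated library and BPA replicate 2 above. Of these genes 1 was higher (Sall4) and 4 were lower (Id4, Bcl6b, Uchl1 and Pou5f1). The 6 differentiation genes summed to 747 to 784 CPM untreated and 1018 to 1126 CPM under BPA, with 2 higher (Stra8 and Sohlh1) and 0 lower.

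Summed markers of other cells were lower than these sums. The sums are not scaled for gene number or length, so they do not give the share of other cells. Of 12 Sertoli cell markers 7 were tested and 2 were higher (Sox9 and Clu), their sum went from 48.3 to 61.5 CPM untreated to 127 to 163 CPM under BPA, and Fshr and Rhox5 had 0 counts throughout. The 12 fibroblast feeder markers summed to 209 to 255 and 136 to 231 CPM, with Tagln lower among 10 tested and 0 higher. Of 11 spermatocyte and spermatid markers 3 were tested and none passed, their sum was 39.2 to 56.8 CPM untreated and 140, 27.8 and 106 CPM in BPA replicates 1 to 3, and Spo11, Acr, Acrv1, Prm2 and Tnp2 had 0 counts. The 8 Leydig and peritubular markers summed to 12.5 to 17.2 and 8.05 to 13.8 CPM and the 7 macrophage markers to 61.2 to 63.1 and 31.8 to 46.3 CPM, with none called among 3 tested in each, and with Cyp17a1, Hsd3b1, Insl3 and Aif1 at 0 counts. At an unadjusted edgeR p under 0.05, 1 spermatocyte marker was higher, 2 macrophage markers were lower and 0 Leydig and peritubular markers differed, while DESeq2 called 1, 0 and 0 and limma-voom 0 of each. The part of cell composition in the fall of Nanos3 and Dnd1 was not tested.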

How the data were processed

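Gene expression was measured by RNA sequencing in 6 libraries, 3 untreated and 3 BPA. Per the labels' protocols, the library kit was TruSeq RNA v2, a kit that does not mark strand. The submitters' processing notes name TopHat2 2.0.9, HTSeq and mm10; neither the setting of HTSeq nor its annotation is given in the sources used here. Values as deposited are raw gene counts and FPKM made by the authors. The FPKM equal the count over a gene length and the column total, to within a relative deviation of 9.20e-04, and 5.5% of the lengths so recovered exceed the gene's locus. Merged exon lengths of GENCODE release M21 were therefore used for levels per kilobase, and FPKM as an alternative.

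After filterByExpr and scaling factors from the trimmed mean of M-values, the counts of all genes entered the quasi-likelihood test of edgeR 4.0.16 in R 4.3.3, with no block, Benjamini-Hochberg adjustment and a threshold of 0.05. Each SE given here was derived from that test, as the absolute log2 fold change over the square root of its F statistic. It was not estimated separately. The script was tested on simulated data. Alternatives were DESeq2 1.42.0, limma-voom (limma 3.58.1), other scalings and filters, a replicate block, an FDR of 0.01 and fits without each library. A correction for each library's lowess trend (span 0.3) on GC content and gene length was added after the data were seen. Replicate libraries differed beyond sampling noise, so none was counted as a duplicate. Intervals of single counts are not given, since replicate spread was larger.

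The rule named all members. Each list gave up to 4 genes of smallest adjusted p among those called, or its 2 most abundant where none passed. The rule also took the 5 genes most like Nanos3 and Dazl. A few genes it took are not reported here. Members and lists were chosen with earlier results of these data known.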

Additional observations from a re-analysis of the deposited data

How the results depend on the processing

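Leaving out 1 library at a time gave 162 to 1207 higher and 282 to 1600 lower genes, and 1 to 2 lower and 0 to 2 higher members. The highest counts of genes in each direction came without BPA replicate 2, where the BPA libraries left had negative GC trends. The log2 fold change then ran from -2.81 to -2.50 for Nanos3, -2.53 to -1.18 for Nanos2, -0.17 to 0.42 for Nanos1, -0.69 to -0.48 for Dnd1, -0.087 to 0.54 for Dazl, -0.19 to 0.62 for Ddx4 and 0.34 to 1.03 for Pum2. Genes past the threshold in either direction ran from 1 to 3 in the Pumilio and CCR4-NOT list, 0 to 4 in the P-body list, 1 to 4 in the poly(A)-binding list, 0 to 5 among the other RNA-binding proteins and 3 to 7 among the studied targets. Among markers they ran from 2 to 6 for undifferentiated and 1 to 2 for differentiating spermatogonia, 0 to 1 for spermatocytes, 1 to 2 for Sertoli cells, 0 to 2 for feeders, 0 to 0 for Leydig cells and 0 to 1 for macrophages.

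Over all genes, DESeq2 gave 977 higher, no low-count filter 927 and the GC and length correction 872. An FDR of 0.01 gave 155 higher and 322 lower genes and 1 lower member. In the Pumilio list DESeq2 called 4 and limma-voom 1. In the P-body list DESeq2 called 2, the GC and length correction 2, library size scaling 3, no filter 3 and limma-voom 0. Among the other RNA-binding proteins the GC and length correction and library size scaling each called 1. For spermatocyte markers DESeq2 and no filter each called 1, and for feeder markers DESeq2 2, the GC and length correction 3, no filter 2, library size scaling 0 and limma-voom 0. Nanos2 passed with limma-voom (-2.06) and with no filter (-1.62). Ddx4 reversed to -0.13 with limma-voom and -0.23 with the GC and length correction, and Elavl1 to -0.094 with that correction. The cause of these shifts was not tested.

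The values gave no clear pairing of the libraries by replicate number. Same-numbered libraries correlated at -0.02, 0.06 and 0.07 over genes in their deviation from the group mean. Untreated replicates 2 and 3 each correlated best with the BPA library of the same number, and untreated replicate 1 with BPA replicate 2, at 0.014. With a replicate block 721 genes were higher and 985 lower, Nanos2 was at -1.93 and past the threshold, Ddx4 reversed to -0.079, and 2 feeder markers were called. Mean deposited FPKM was 333 untreated and 56.6 under BPA for Nanos3, 70.8 and 51.1 for Dnd1, 60.8 untreated for Dazl, and 1.55 and 2.66 for Pum2, since other gene lengths were used. Nanos2 rested on 26 to 268 counts a library, and the part of depth in its spread was not tested.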
